A study of Homo sapiens with 9 samples.

Results

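Transcript levels of 10 autophagy genes were followed in U2OS, a human osteosarcoma cell line, after RNA interference against BAP1, a nuclear deubiquitinase and tumour suppressor. The genes were chosen by name, with their values in these 3 groups known, and taken with every probe set that carries their symbol alone: the cargo receptors SQSTM1, NBR1, OPTN and CALCOCO2, the ATG8 proteins MAP1LC3B and GABARAPL1, the early factors ULK1, BECN1 and WIPI1, and the transcription factor TFEB. They account for 10 of 19775 genes and 27 of 41091 probe sets with 1 symbol. The log2 differences between the groups were thus in view when the genes were chosen, so the values of the 10 genes are a description, with no p-value.

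The 3 groups had 3 arrays each: U2OS cells with the BAP1 hairpin shBAP1 #1, U2OS cells with the BAP1 hairpin shBAP1 #2, and U2OS cells with a non-targeting hairpin, shControl. All groups had been transfected with hairpin plasmids by lipid reagent, selected in puromycin and held at the G1/S border by a double thymidine block, which the controls share. The cells were thus a puromycin-selected population of 1 tumour line arrested with thymidine, and the labels do not say whether the replicates were separate cultures, so the errors may be technical. The BAP1 transcript was not analysed here, so the depth of the knockdown is not given.

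Autophagy encloses cytoplasm in a double membrane, the autophagosome, and delivers it to the lysosome. The ULK1 kinase complex and the lipid kinase complex around BECN1 start the membrane, WIPI proteins read the lipid that this kinase makes, and ATG8 proteins such as LC3 are attached to the membrane. Receptors such as SQSTM1, also called p62, bind both ubiquitinated cargo and ATG8 proteins, and are degraded with the cargo. TFEB switches on autophagy and lysosome genes when nutrients are short, and SQSTM1 is also a target gene of the antioxidant factor NRF2. The arrays read messenger RNA and not the turnover of autophagosomes.

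The upstream sequences of 4 of the 5 genes called higher with shBAP1 #2 are shown, because TFEB and NRF2 bind known motifs. BECN1, the fifth, is not shown and its window holds no match. Each is the 250 bases before an annotated transcript start in RefSeq (GRCh38.p14), read 5′ to 3′ on the gene's strand. Capitals mark a match to TGACNNNGC or TGAGNNNGC on either strand, both forms of the core of the element that NRF2 binds. The GABARAPL1 and WIPI1 windows hold no match. Of the 3 SQSTM1 windows the 1 with a match is shown.
SQSTM1, chr5:179820655-179820904, plus strand: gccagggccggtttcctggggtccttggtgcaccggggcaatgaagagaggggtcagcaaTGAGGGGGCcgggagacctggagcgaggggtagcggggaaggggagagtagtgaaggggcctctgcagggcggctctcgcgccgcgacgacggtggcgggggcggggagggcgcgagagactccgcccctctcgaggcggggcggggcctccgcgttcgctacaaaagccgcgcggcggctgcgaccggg
MAP1LC3B, chr16:87392086-87392335, plus strand: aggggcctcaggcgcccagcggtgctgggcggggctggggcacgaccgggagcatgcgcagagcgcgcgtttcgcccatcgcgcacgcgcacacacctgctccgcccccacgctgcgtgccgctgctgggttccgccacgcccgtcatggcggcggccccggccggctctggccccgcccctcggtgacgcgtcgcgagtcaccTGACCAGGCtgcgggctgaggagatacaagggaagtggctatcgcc
GABARAPL1, chr12:10212627-10212876, plus strand: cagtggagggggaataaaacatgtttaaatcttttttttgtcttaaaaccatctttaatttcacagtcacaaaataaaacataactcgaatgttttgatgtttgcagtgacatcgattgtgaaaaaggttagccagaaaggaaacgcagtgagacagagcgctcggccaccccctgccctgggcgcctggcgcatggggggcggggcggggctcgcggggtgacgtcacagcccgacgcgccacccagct
WIPI1, chr17:68457497-68457746, minus strand: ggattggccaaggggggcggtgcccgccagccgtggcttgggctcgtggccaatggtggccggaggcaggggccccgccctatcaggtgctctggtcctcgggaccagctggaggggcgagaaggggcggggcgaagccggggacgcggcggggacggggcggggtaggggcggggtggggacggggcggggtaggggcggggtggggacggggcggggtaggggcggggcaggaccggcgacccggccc

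All 10 genes had at least 1 such window in the RefSeq table, 16 windows in all. The palindrome CACGTG, the core of the sites that TFEB and its relatives bind, was in 0 of the 16 windows and in 6.34% of all 35116 windows of that length. TGACNNNGC was in 2 of the 16, those of MAP1LC3B and CALCOCO2, and in 10.9% of all windows. TGAGNNNGC was also in 2 of the 16, in the SQSTM1 window shown and in that of CALCOCO2, and in 14.8% of all windows. A match describes these letters and is not a binding site.

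Values are log2 expression after robust multi-array averaging (RMA), so 1 unit is a doubling, and each array's median lay between 5.40 and 5.44. The median of all probe set means, 5.43, was used as a mark for dim probe sets, and 23 of the 27 probe sets of the 10 genes reached it. Background may limit signals below this median, but no detection call was made. Across all probe sets, shBAP1 #2 replicate 1 correlated with the control arrays at a mean of 0.989, and replicates 2 and 3 at 0.981. Differences of shBAP1 #2 from shControl without replicate 1 are therefore given below for SQSTM1, OPTN, MAP1LC3B and GABARAPL1. For the brightest probe sets of the other genes they were -0.90 (NBR1), -0.73 (CALCOCO2), 0.45 (BECN1), 0.99 (WIPI1), 0.14 (ULK1) and -0.05 (TFEB). The difference between 3′ and 5′ actin probe sets, which reflects how intact the RNA was and how far labelling ran, was 0.39 to 0.41 in shBAP1 #1 arrays, 0.39 to 0.46 in shBAP1 #2 arrays and 0.47 to 0.51 in shControl arrays, and its part in the results was not tested. Of 6 genes typical of mesenchymal or osteoblast cells, 5 reached that median, COL1A2 being the exception, and 6 of 6 markers of other cell types (PTPRC, CD3E, CD14, ALB, GFAP and CDH1) lay below it. Of these markers COL1A1, SPARC, FN1 and RUNX2 were called higher with shBAP1 #1 (FN1 by 1.81) and FN1 also with shBAP1 #2 (by 0.25), and their part in the results was not tested.

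The 10 autophagy genes fell into several patterns over the BAP1 hairpins. SQSTM1, MAP1LC3B and BECN1 fell with shBAP1 #1 and rose with shBAP1 #2, GABARAPL1 and WIPI1 rose with shBAP1 #2, and NBR1 fell with both. OPTN and CALCOCO2 fell with shBAP1 #2 by their brightest probe sets, while ULK1 was not called with either hairpin. A probe set is called here where limma gave a Benjamini-Hochberg adjusted p below 0.05 over all 54613 probe sets. With shBAP1 #1, 2 of the 27 probe sets were called higher and 9 lower, where 17.7% of all probe sets were called in either direction, 8.98% higher and 8.76% lower. With shBAP1 #2, 12 were called higher and 7 lower, where 24.1% of all were called, 12.6% higher and 11.5% lower. Between the hairpins, shBAP1 #2 was called above shBAP1 #1 in 13 and below it in 4, where 25.5% of all were called, 13.0% higher and 12.5% lower. On single arrays, 2 probe sets had all shBAP1 #1 arrays above and 11 below all shControl arrays, where 15.9% and 15.1% of all did. For shBAP1 #2 over shControl these numbers were 12 and 9, where 19.1% and 16.1% of all did, and for shBAP1 #2 over shBAP1 #1 they were 13 and 7, where 18.6% and 17.4% did. Both hairpins together gave 7 probe sets called lower with shBAP1 #1 and higher with shBAP1 #2 (1.35% of all), 2 lower with both (3.49%) and 1 higher with both (4.02%). The median difference over the 27 was -0.11 with shBAP1 #1 and 0.09 with shBAP1 #2, beside 0.01 and 0.02 over all probe sets. The choice of the genes used these comparisons, so nothing is read from the counts, and both hairpins were compared with the same control arrays.

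**Figure D1:**
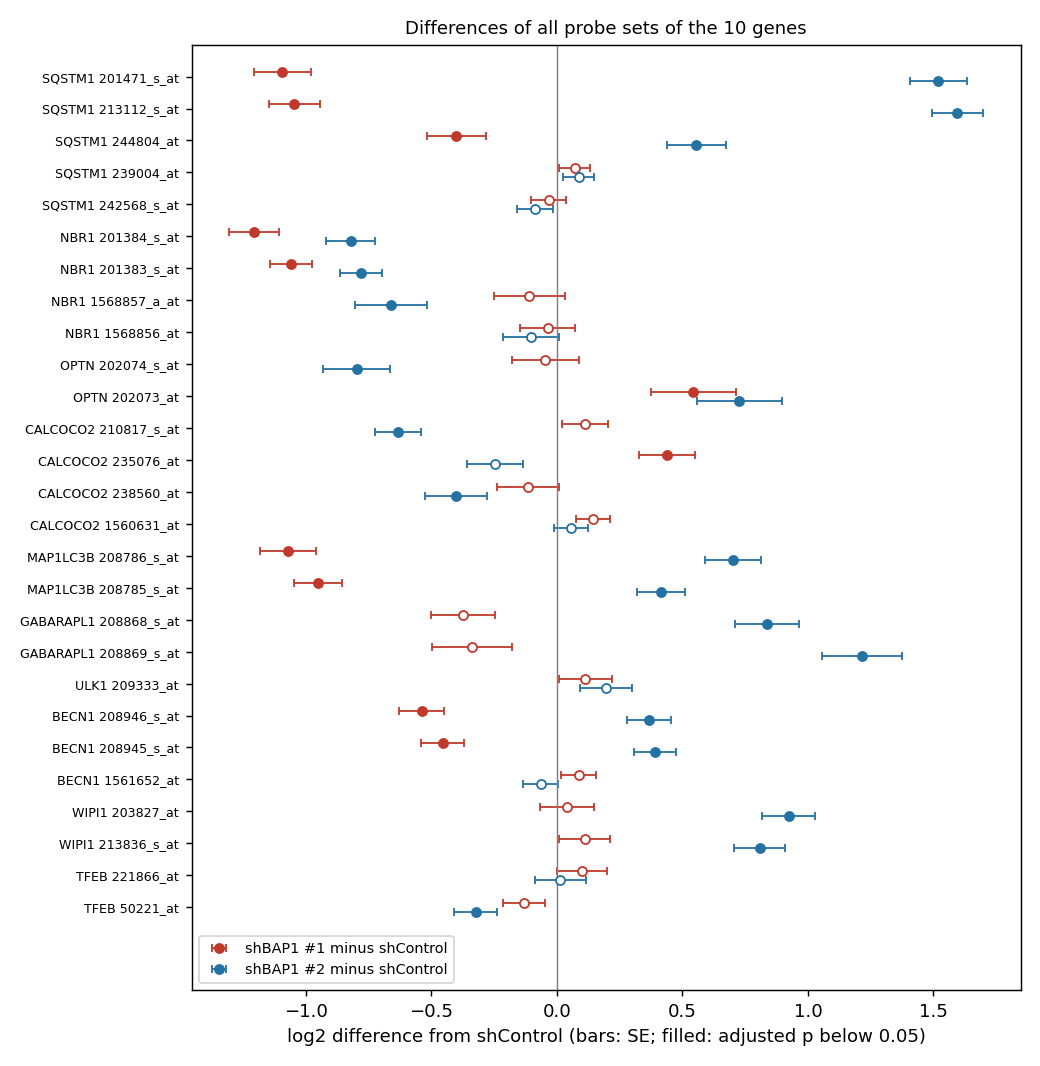
Log2 difference from shControl (x axis, log2 units) for each of the 27 probe sets of the 10 genes (y axis), with shBAP1 #1 above shBAP1 #2 in each row; bars are standard errors and filled points passed the adjusted threshold. The 2 brightest probe sets of SQSTM1, MAP1LC3B, GABARAPL1 and BECN1 lie left of 0 with shBAP1 #1 and right of 0 with shBAP1 #2. So does SQSTM1 244804_at, while SQSTM1 239004_at lies right of 0 with both. The GABARAPL1 points are open with shBAP1 #1. The 2 brightest probe sets of NBR1 lie left with both.

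SQSTM1, the ubiquitin-binding receptor p62, had the widest spread between groups. Its brightest probe set, 201471_s_at, read 9.47, 9.49 and 9.46 in the shBAP1 #1 arrays and 11.89, 12.17 and 12.19 in the shBAP1 #2 arrays, against 10.51, 10.80 and 10.39 in the shControl arrays. The shBAP1 #1 arrays were all low, the shBAP1 #2 arrays all high, and no 2 groups overlapped. The log2 difference was -1.09 ± 0.11 (SE, n = 3) with shBAP1 #1, a level 2.13-fold lower than in shControl, and 1.52 ± 0.11 with shBAP1 #2, 2.87-fold higher. Between the hairpins, shBAP1 #2 stood 2.61 log2 units above shBAP1 #1, or 6.12-fold. Without replicate 1 of shBAP1 #2 the difference of that hairpin from shControl was 1.62. These are levels of RNA from whole cultures, so fewer expressing cells and less RNA per cell cannot be told apart.

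The other 4 probe sets of SQSTM1 fell into those that followed this pattern and those that did not. Probe set 213112_s_at read 7.36, 7.45 and 7.51 in shBAP1 #1 and 9.90, 10.17 and 10.18 in shBAP1 #2, against 8.52, 8.62 and 8.32 in shControl, with differences of -1.05 and 1.60 (SE 0.10). The third by level, 244804_at, changed the same ways by less, -0.40 and 0.56 (SE 0.12), and its fall with shBAP1 #1 was lost on leaving out 1 array in 6 of 9 cases (without any shBAP1 #1 replicate, shBAP1 #2 replicate 3, or shControl replicate 1 or 2), at -0.46 to -0.35. Probe set 239004_at stayed between 6.97 and 7.15 on all arrays, with differences of 0.07 and 0.09 (SE 0.06). The dimmest, 242568_s_at, averaged 3.75, 3.70 and 3.78 in shBAP1 #1, shBAP1 #2 and shControl, below the median of all probe sets. The annotation assigns all 5 to SQSTM1 and does not say which transcript each reads.

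**Figure D2:**
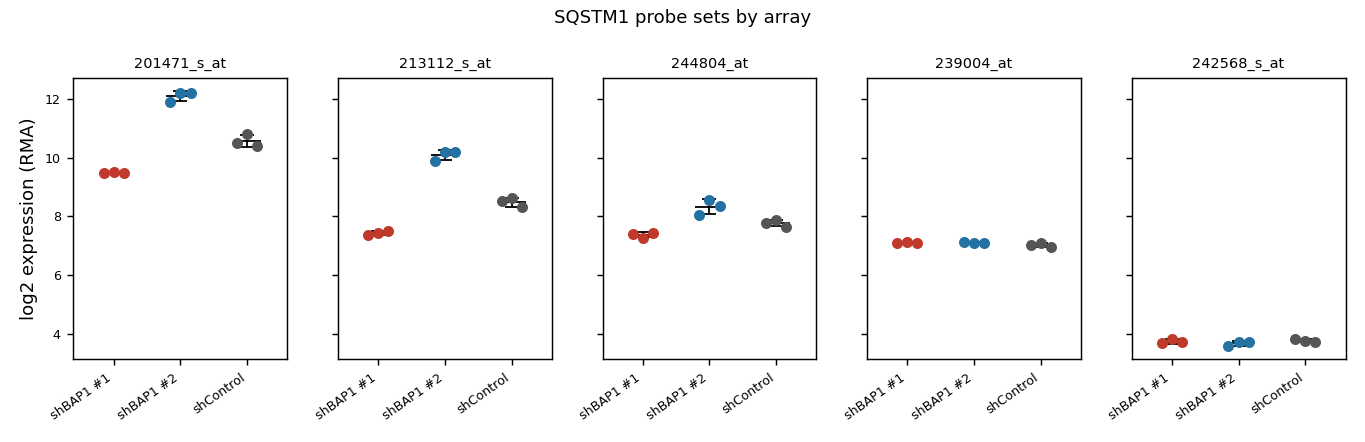
Log2 expression (y axis) of the 5 SQSTM1 probe sets, 1 per panel, on each array of shBAP1 #1, shBAP1 #2 and shControl (x axis); dots are arrays and bars give mean ± SD. In 201471_s_at, 213112_s_at and 244804_at the shBAP1 #1 dots lie below and the shBAP1 #2 dots above all shControl dots, and in 239004_at and 242568_s_at the groups overlap.

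NBR1, a relative of SQSTM1 that also carries ubiquitinated cargo, was lower with both hairpins. Its brightest probe set, 201384_s_at, read 8.66, 8.83 and 8.95 in shBAP1 #1 and 9.36, 9.06 and 9.18 in shBAP1 #2, against 10.04, 10.09 and 9.93 in shControl. Every BAP1 hairpin array lay below every control array, and the fall was larger with shBAP1 #1. The log2 difference was -1.21 ± 0.10 (SE, n = 3) with shBAP1 #1 and -0.82 ± 0.10 with shBAP1 #2, 2.31-fold and 1.77-fold lower. The probe set 201383_s_at gave -1.06 and -0.78 (SE 0.08). In 201384_s_at shBAP1 #2 lay above shBAP1 #1 by 0.38, and that call was lost without shBAP1 #1 replicate 1, at 0.31. In 201383_s_at the same difference was 0.28, a call lost on leaving out 1 array in 4 of 9 cases and with only the 2 groups compared. The dimmer 1568857_a_at differed by -0.11 with shBAP1 #1 and fell with shBAP1 #2 (-0.66). There shBAP1 #2 was called below shBAP1 #1, at -0.55, a call lost without shBAP1 #1 replicate 1 or shBAP1 #2 replicate 2. Probe set 1568856_at, below the median of all probe sets, gave -0.04 with shBAP1 #1 and -0.10 with shBAP1 #2.

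The probe sets of OPTN, optineurin, a receptor for damaged mitochondria and bacteria, disagreed with each other. The brighter, 202074_s_at, read 9.42, 9.65 and 9.39 in shBAP1 #1 and 9.01, 8.71 and 8.48 in shBAP1 #2, against 9.56, 9.66 and 9.37 in shControl. The shBAP1 #2 arrays were all below the others and the remaining groups overlapped, with differences of -0.05 ± 0.13 (SE, n = 3) for shBAP1 #1 and -0.80 ± 0.13 for shBAP1 #2, or -0.94 without replicate 1 of the second hairpin. The dimmer, 202073_at, read 6.02, 6.36 and 6.05 in shBAP1 #1 and 6.39, 6.16 and 6.43 in shBAP1 #2, against 5.80, 5.82 and 5.17 in shControl. It was thus higher with both, by 0.54 and 0.73 (SE 0.17), in the direction opposite to the brighter set for shBAP1 #2. Control replicate 3 lay apart at 5.17, and the call with shBAP1 #1 was lost on leaving out 1 array in 8 of 9 cases (all but the fit without shControl replicate 2). Without shControl replicate 3 the difference was 0.33, the lowest of the 9, and the call was also lost with cyclic loess, with only the 2 groups compared and with a replicate block.

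CALCOCO2, also called NDP52, a receptor for bacteria and mitochondria, was lower with shBAP1 #2 by its brightest probe set, 210817_s_at. That set read 9.96, 9.85 and 9.95 in shBAP1 #1 and 9.37, 9.05 and 9.11 in shBAP1 #2, against 9.78, 9.74 and 9.91 in shControl. Only the shBAP1 #2 arrays stood apart from shControl, by -0.63 ± 0.09 (SE, n = 3), beside 0.11 ± 0.09 for shBAP1 #1. Probe set 238560_at was lower with shBAP1 #2 as well (-0.40), a call lost on leaving out 1 array in 6 of 9 cases (any shBAP1 #2 or shControl replicate), at -0.45 to -0.36. Probe set 235076_at read 7.42, 7.28 and 7.49 in shBAP1 #1 against 6.96 on each shControl array, a rise of 0.44 that was lost in 5 of 9 such fits (without shBAP1 #1 replicate 1 or 3, or any shControl replicate). In shBAP1 #2 it differed by -0.25 and was not called. Probe set 1560631_at lay below the median of all probe sets and gave 0.14 and 0.06.

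MAP1LC3B encodes LC3B, the ATG8 protein whose lipid-bound form marks autophagosomes. Its brightest probe set, 208786_s_at, read 9.89, 10.08 and 10.15 in shBAP1 #1 and 11.62, 11.85 and 11.98 in shBAP1 #2, against 11.07, 11.27 and 11.00 in shControl. The 3 groups were fully separated in the order seen for SQSTM1, shBAP1 #1 lowest and shBAP1 #2 highest. The log2 difference was -1.07 ± 0.11 (SE, n = 3) with shBAP1 #1, 2.10-fold lower, and 0.70 ± 0.11 with shBAP1 #2, 1.63-fold higher, or 0.80 without replicate 1 of that hairpin. Probe set 208785_s_at gave -0.95 and 0.41 (SE 0.10). The suffix of both marks probes that can match more than 1 transcript. In all, 14 of the 27 probe sets carry it, among them the brightest of SQSTM1, NBR1, OPTN, CALCOCO2, GABARAPL1 and BECN1. Whether those of MAP1LC3B also read MAP1LC3B2, a near-identical copy, was not tested, and their values are uncertain to that extent.

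GABARAPL1, an ATG8 protein of the GABARAP branch, rose with shBAP1 #2. Probe set 208868_s_at read 7.44, 7.66 and 7.55 in shBAP1 #1 and 8.42, 8.95 and 8.92 in shBAP1 #2, against 7.87, 7.97 and 7.93 in shControl. The arrays of the 3 groups did not overlap, replicate 1 of shBAP1 #2 being nearest to the controls. The log2 difference was 0.84 ± 0.13 (SE, n = 3) with shBAP1 #2, and 1.01 without that replicate. With shBAP1 #1 it was -0.37 ± 0.13, which was not called, but was called without shBAP1 #2 replicate 1, with only the 2 groups compared and with a replicate block. Probe set 208869_s_at gave -0.34 with shBAP1 #1 and 1.22 with shBAP1 #2 (SE 0.16), or 1.43 without replicate 1 of that hairpin. A further probe set that the annotation shares between GABARAPL1 and its near-identical copy GABARAPL3 was not counted among the 27 and gave -0.43 with shBAP1 #1 and 1.22 with shBAP1 #2.

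BECN1, the beclin subunit of the lipid kinase complex, moved in the same directions as SQSTM1 by smaller amounts. Probe set 208946_s_at read 9.31, 9.47 and 9.42 in shBAP1 #1 and 10.14, 10.31 and 10.48 in shBAP1 #2, against 9.94 on each of the shControl arrays. All shBAP1 #1 arrays were below and all shBAP1 #2 arrays above the controls. The log2 difference was -0.54 ± 0.09 (SE, n = 3) with shBAP1 #1, 1.45-fold lower, and 0.37 ± 0.09 with shBAP1 #2, 1.29-fold higher. Probe set 208945_s_at gave -0.46 and 0.39 (SE 0.08), and the dim 1561652_at gave 0.09 and -0.07.

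WIPI1, which binds the phosphoinositide made by the BECN1 complex, rose with shBAP1 #2. Probe set 203827_at read 8.78, 9.06 and 8.65 in shBAP1 #1 and 9.57, 9.75 and 9.82 in shBAP1 #2, against 8.77, 8.85 and 8.74 in shControl. The shBAP1 #1 and shControl arrays overlapped and every shBAP1 #2 array lay above both. The log2 difference was 0.04 ± 0.11 (SE, n = 3) with shBAP1 #1 and 0.92 ± 0.11 with shBAP1 #2, 1.90-fold higher. Probe set 213836_s_at gave 0.11 and 0.81 for the same hairpins (SE 0.10).

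ULK1, the kinase that starts autophagosome formation, has 1 probe set, 209333_at, which read 6.64, 6.79 and 6.54 in shBAP1 #1 and 6.85, 6.50 and 6.87 in shBAP1 #2, against 6.53, 6.57 and 6.54 in shControl. The groups overlapped, and the differences were 0.11 and 0.20 (SE 0.10). Without shBAP1 #2 replicate 2, the lowest of its group, the difference with shBAP1 #2 was 0.31 and was called. TFEB was measured by 221866_at at 6.60, 6.47 and 6.61 in shBAP1 #1 and 6.59, 6.43 and 6.39 in shBAP1 #2, against 6.30, 6.67 and 6.40 in shControl. These groups overlapped too, with differences of 0.10 and 0.01 (SE 0.10). Its dimmer probe set, 50221_at, was called lower with shBAP1 #2 at -0.32 and not with shBAP1 #1 at -0.13, and the call was lost on leaving out 1 array in 4 of 9 cases (without shBAP1 #2 replicate 2 or 3, or shControl replicate 2 or 3), at -0.39 to -0.28.

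**Figure D3:**
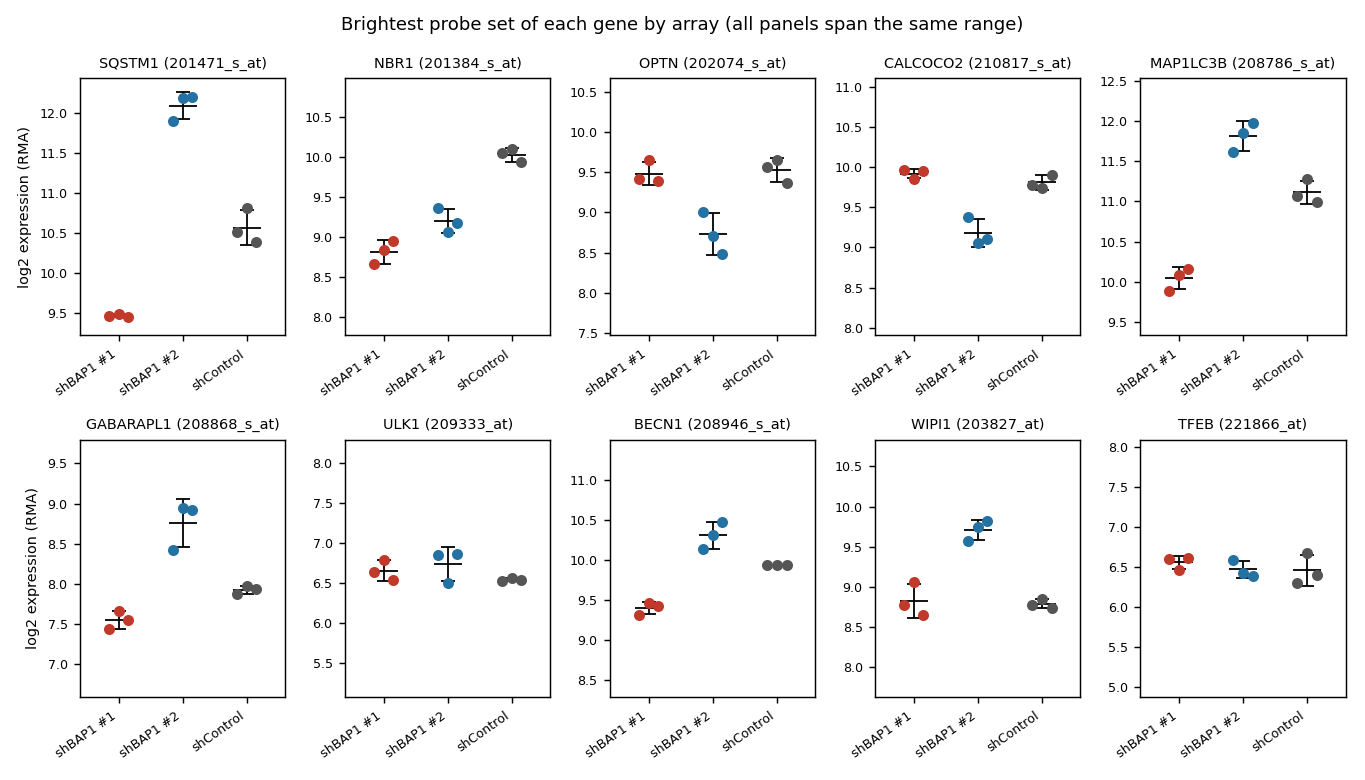
Log2 expression (y axis, the same span in every panel) of the brightest probe set of each gene on each array of shBAP1 #1, shBAP1 #2 and shControl (x axis); dots are arrays and bars give mean ± SD. SQSTM1, MAP1LC3B, GABARAPL1 and BECN1 have shBAP1 #1 lowest and shBAP1 #2 highest with no overlap, NBR1 has both hairpins below shControl, and ULK1 and TFEB overlap.

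Across the brightest probe set of each gene, 3 of the 10 genes were called lower with shBAP1 #1 and higher with shBAP1 #2, a pattern found in 1.66% of all 19775 genes taken in the same way. NBR1 was the 1 gene called lower with both, where 4.85% of all genes were, and 0 were called higher with both, where 5.56% of all genes were. Opposite calls with the hairpins, in either order, were made in 2.95% of all genes. In 4 further genes (OPTN, CALCOCO2, GABARAPL1 and WIPI1) a call was made with shBAP1 #2 and not with shBAP1 #1, where 17.9% of all genes were. Whether the hairpins differ is not shown by that count. Set directly against each other, shBAP1 #2 was called above shBAP1 #1 for SQSTM1, NBR1, MAP1LC3B, GABARAPL1, BECN1 and WIPI1 and below it for OPTN and CALCOCO2, where 16.1% of all genes were called higher and 16.5% lower. In groups ordered by level, ULK1 and TFEB had no neighbours that differed beyond their spread, and shBAP1 #1 and shControl were not separated for OPTN, CALCOCO2 and WIPI1.

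The 5 genes whose levels over the 9 arrays were most like those of SQSTM1 (Pearson's r with 201471_s_at, among 12751 genes that reached the median level) were CMTM8 (0.994), DSC2 (0.994), SDCBP (0.993), FTL (0.992) and IAH1 (0.992). The arrays fall into 3 groups and these genes share that order, so the correlation describes the order of the groups. DSC2, a desmosomal cadherin, had a log2 difference of -1.01 with shBAP1 #1 and 1.54 with shBAP1 #2, close in size to SQSTM1. FTL, the light chain of the iron store ferritin, had -0.20 and 0.38 by a probe set of the cross-matching kind. SDCBP, the scaffold protein syntenin, had -0.51 and 0.62.

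The rest of the autophagy pathway was read from 64 other genes in 8 lists, 1 probe set per gene. Several of these probe sets carry the suffix _s_at, which marks probes that can match more than 1 transcript. Among them are those of RB1CC1, NRBF2, WIPI2, WDR45B, ATG3, ATG16L1, ATG4D, GABARAPL2, MITF, TSC2, STX17 and RAB7A. With shBAP1 #1, 11 of the 64 rose and 13 fell, where 11.9% of all genes were called higher and 11.5% lower. With shBAP1 #2, 25 rose and 15 fell, where 15.8% were called higher and 15.5% lower. The same shares of all genes apply to the counts of each list below, and nothing is read from those counts. The median log2 difference of the 64 was -0.11 and 0.09, beside 0.01 and 0.02 over all genes. The adjusted p-values that follow are limma's, after Benjamini-Hochberg adjustment over all probe sets. The lists, too, were chosen with earlier results of these data known, so these p-values are descriptive and give no independent support.

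In the initiation kinase complex, RB1CC1, the FIP200 scaffold that holds ULK1, fell with shBAP1 #1 by 1.34 (adjusted p = 7.96e-05) and differed by 0.03 with shBAP1 #2. ATG13, which bridges ULK1 to it, rose with both hairpins, by 0.47 and 0.93, by a cross-matching probe set. The shBAP1 #1 call of ATG13 was lost without shBAP1 #1 replicate 1 or shControl replicate 2, at 0.42 and above. ATG101, which stabilises ATG13, rose with shBAP1 #2 by 0.43 and differed by 0.17 with shBAP1 #1.

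Of 7 genes of the BECN1 lipid kinase complex, 1 rose and 1 fell with shBAP1 #1, and 2 rose and 2 fell with shBAP1 #2. RUBCN, an inhibitor of the complex, rose with both, by 0.51 and 0.31 (adjusted p = 0.000351 and 0.00603). ATG14, the subunit that directs the complex to autophagosomes, fell with shBAP1 #2 by 0.52 and differed by 0.06 with shBAP1 #1. NRBF2, a partner of ATG14, fell with shBAP1 #2 by 0.21, a call lost on leaving out 1 array in 8 of 9 cases (all but the fit without shBAP1 #2 replicate 3), with a replicate block and with only the 2 groups compared, and differed by -0.15 with shBAP1 #1. The catalytic subunit PIK3C3 differed by -0.05 and -0.01 and was called with neither hairpin.

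Among 8 genes of lipid supply and phosphoinositide reading, 1 rose and 1 fell with shBAP1 #1, and 3 rose and 1 fell with shBAP1 #2. WIPI2, the close relative of WIPI1, rose with shBAP1 #2 by 0.35 and differed by -0.22 with shBAP1 #1, where it was called with dim probe sets left out, with eBayes trend and robust, and without shBAP1 #1 replicate 3. The lipid transfer gene ATG2A rose with shBAP1 #2 by 0.41. TMEM41B, a scramblase of the endoplasmic reticulum, rose with shBAP1 #1 by 0.52. Among 10 genes that attach ATG8 proteins to membranes, 3 rose and 2 fell with shBAP1 #1, and 5 rose and 2 fell with shBAP1 #2. ATG16L1, which places the reaction on the membrane, rose with both (0.56 and 0.35), and ATG3, the enzyme that transfers ATG8 to lipid, fell with shBAP1 #2 by 0.88 (adjusted p = 0.000179). With shBAP1 #1 ATG3 differed by -0.32 (adjusted p = 0.0669), which was called lower under 4 of 6 alternatives and without shBAP1 #2 replicate 1 or 2. ATG4D, a protease of ATG8 proteins, rose with both, by 0.58 and 0.74, but the shBAP1 #1 call was lost on leaving out 1 array in 8 of 9 cases (all but the fit without shControl replicate 3), with only the 2 groups compared and with a replicate block.

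Of the 4 other ATG8 genes, 2 rose with shBAP1 #2: GABARAPL2 by 0.48 and GABARAP by 0.38. With shBAP1 #1 these differed by -0.17 and 0.21 and were not called, GABARAP being called higher with eBayes trend and robust. MAP1LC3C differed by 0.30 with shBAP1 #1, which was not called. It was called higher under 4 of 5 alternatives (1 probe set per gene, cyclic loess, only the 2 groups compared and a replicate block). It was also called without shBAP1 #2 replicate 2 or 3. The MAP1LC3C probe set, at a mean of 4.71, lies below the median of all probe sets. Of 11 other receptors and adaptors, 1 rose and 4 fell with shBAP1 #1, and 2 rose and 2 fell with shBAP1 #2. FUNDC1, a receptor on mitochondria, fell with both, by 1.20 and 0.54 (adjusted p = 3.32e-05 and 0.00245), as did CCPG1, a receptor of the endoplasmic reticulum, by 0.77 and 0.46. The CCPG1 probe set is of the cross-matching kind and lies below the median of all probe sets. Its shBAP1 #2 call was lost without shBAP1 #2 replicate 2 or shControl replicate 3. TBK1, the kinase that activates OPTN and SQSTM1, rose with shBAP1 #2 by 0.59 and differed by -0.10 with shBAP1 #1.

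Among 14 relatives and nutrient regulators of TFEB, 2 rose and 3 fell with shBAP1 #1, and 5 rose and 7 fell with shBAP1 #2. MTOR, the kinase that holds TFEB in the cytoplasm when nutrients are ample, fell with both by 0.45 and 0.41 (adjusted p = 0.00112 and 0.00142). TSC2, a brake on that kinase, rose with both, by 0.50 and 0.58. RHEB, which activates the kinase, fell with shBAP1 #1 by 1.05 and differed by 0.19 with shBAP1 #2, by a cross-matching probe set. Of 6 genes of autophagosome fusion with the lysosome, 2 rose and 1 fell with shBAP1 #1, and 4 rose and 1 fell with shBAP1 #2. VAMP8, a fusion SNARE, differed by -0.48 with shBAP1 #1, which was called lower only with a replicate block among the alternatives. The tethers PLEKHM1 (0.54 and 0.97) and EPG5 (0.51 and 0.87) rose with both, EPG5 losing its shBAP1 #1 call without shBAP1 #1 replicate 1 or 2 or shControl replicate 1 or 3. RAB7A, the GTPase of late endosomes, rose with shBAP1 #2 by 0.62 and differed by -0.18 with shBAP1 #1.

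**Figure D4:**
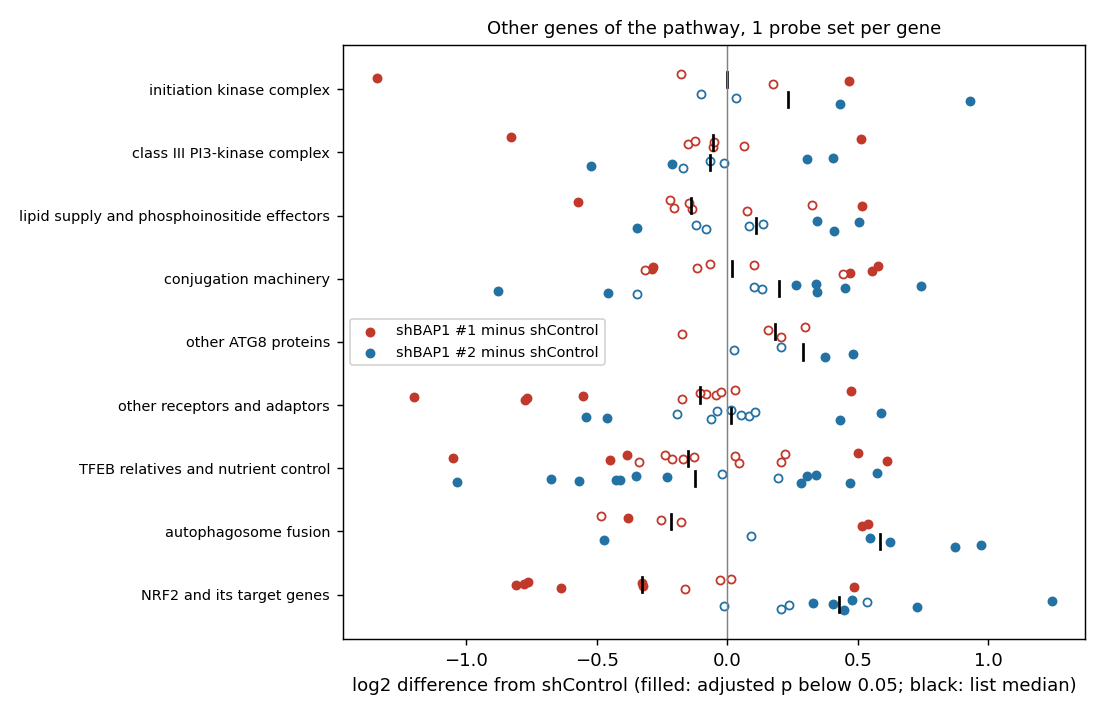
Log2 difference from shControl (x axis, log2 units) of 74 further genes in 9 lists (y axis), with shBAP1 #1 above shBAP1 #2 in each row; filled points passed the adjusted threshold and black ticks are list medians. The NRF2 list has a median of -0.33 with shBAP1 #1 and 0.43 with shBAP1 #2, and the fusion list -0.22 and 0.58 with members on both sides of 0. Lipid supply (-0.14 and 0.11) and other receptors (-0.10 and 0.01) have the same signs, and the initiation complex has 0.23 with shBAP1 #2 and a median within 0.01 of 0 with shBAP1 #1. The remaining lists do not have medians of opposite sign. Both are negative in the TFEB relatives (-0.15 and -0.13) and the BECN1 lipid kinase complex (-0.05 and -0.07). Both are positive in the other ATG8 proteins (0.18 and 0.29) and the conjugation machinery (0.02 and 0.20).

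NRF2 and its target genes, of which SQSTM1 is one, were read as a ninth list of 10 genes without SQSTM1: NFE2L2, its inhibitor KEAP1, and NQO1, HMOX1, GCLM, GCLC, TXNRD1, SRXN1, SLC7A11 and OSGIN1. With shBAP1 #1, 1 rose and 6 fell, NFE2L2 and KEAP1 among those that fell, where 11.9% of all genes were called higher and 11.5% lower. The calls of KEAP1 (-0.32) and SLC7A11 (-0.76) with shBAP1 #1 were each lost on leaving out 1 array in 4 of 9 cases (without shBAP1 #1 replicate 1 or 2, or shControl replicate 1 or 3). With shBAP1 #2, 6 rose, where 15.8% of all were called higher and 15.5% lower, and the lowest difference was that of KEAP1, -0.01. NFE2L2, which encodes NRF2, fell with shBAP1 #1 by 0.81 (adjusted p = 8.69e-05) and differed by 0.24 with shBAP1 #2 (adjusted p = 0.0606). That difference was called higher with 1 probe set per gene, with dim probe sets left out, with eBayes trend and robust, and without shBAP1 #2 replicate 2. SRXN1, the sulfiredoxin gene, differed by -0.03 and rose by 1.24, and HMOX1, the haem oxygenase gene, rose with both, by 0.48 and 0.73. The shBAP1 #1 call of HMOX1 was lost on leaving out 1 array in 5 of 9 cases (without shBAP1 #1 replicate 2 or 3, or any shControl replicate), at 0.36 to 0.59.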

How the data were processed

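Expression was measured on 9 oligonucleotide arrays of U2OS cells. The deposited values are log2 expression per probe set, made by the authors with RMA, per the submitters' processing notes (version not given in the sources used here). RMA corrects background, equalises the intensity distribution of all arrays and summarises probes, so a common shift of every transcript cannot be seen and dim probe sets show less than their true change. The number of arrays limits the precision. No 2 arrays held identical values.

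Gene symbols come from the annotation of the array platform: 41091 of the 54613 tested had 1 symbol, for 19775 genes, and 62 array controls were left out. The symbols of all 10 genes matched RefSeq (GRCh38.p14). A gene of a list was read by its probe set with the highest mean, and the 10 genes by all their probe sets. Linear models were fitted with limma 3.58.1 in R 4.3.3 (lmFit, eBayes, two-sided, 6 residual and 4.37 prior degrees of freedom) over the 3 groups, with Benjamini-Hochberg adjustment over all probe sets and a threshold of 0.05. The fit was also run on simulated data with independent noise and no pairing, which does not test the calls made on these arrays.

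The 10 genes, the lists and the tests were chosen with earlier results of these data known, so no p-value is given for the 10 genes. For the same reason the calls of the 10 genes, and the calls and adjusted p-values of list genes, are descriptive. From each list up to 3 genes were named, first those called the same way with both hairpins, then those called with 1, by size. PIK3C3, VAMP8, MAP1LC3C, KEAP1, ATG9A and SLC7A11 were named after their values were seen, as were genes called in opposite directions. Deviations of same-numbered arrays from their group means correlated at 0.187, 0.127 and 0.302 between shBAP1 #1 and shControl. In the other 6 pairs these correlations were -0.17 to 0.11. Pairing is thus possible for shBAP1 #1 with shControl and was not settled. The main differences, errors and calls come from fits without a replicate term, and the replicate block, over all 3 groups, is an alternative. The labels give no origin for the replicate numbers. Alternatives were 1 probe set per gene, dim probe sets left out, cyclic loess, eBayes with trend and robust, only the 2 groups compared, a fold minimum of 1.5, a replicate block and leaving out each array. Python 3.11.15 and matplotlib 3.10.9 made the figures.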

Additional observations from a re-analysis of the deposited data

Results flagged for a closer look

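For 4 of the 10 genes every shBAP1 #1 array lay below, and every shBAP1 #2 array above, all shControl arrays. Of all 19775 genes, 3693 had every shBAP1 #1 array below shControl, and 4504 had every shBAP1 #2 array above it. How many genes had both was not computed, so nothing is read from the count. The 4 genes were SQSTM1, MAP1LC3B, GABARAPL1 and BECN1, where shBAP1 #2 exceeded shBAP1 #1 by 2.61, 1.77, 1.21 and 0.91 log2 units. The difference is given as a description, with no p-value, because the genes were chosen with it in view.

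Among the 74 further genes, 9 were called in opposite directions with the hairpins, where 2.95% of all genes were. The difference between the hairpins is the sum of the sizes of both called differences, so it adds no support of its own. UVRAG, a subunit of the BECN1 complex, read 6.91, 7.01 and 7.04 in shBAP1 #1 and 8.08, 8.36 and 8.22 in shBAP1 #2, against 7.79, 7.86 and 7.79 in shControl, and shBAP1 #2 exceeded shBAP1 #1 by 1.23. The mitochondrial receptor gene BNIP3 read 9.86, 9.69 and 9.92 in shBAP1 #1 and 11.03, 11.00 and 11.06 in shBAP1 #2, against 10.58, 10.57 and 10.65 in shControl, a difference between the hairpins of 1.21. WDR45B, of the WIPI family, differed between the hairpins by 1.08, the fusion gene STX17 by 0.93 and TFE3, a relative of TFEB, by 0.72. The NRF2 targets NQO1 and OSGIN1 differed by 1.18 and 0.65. The opposite order, higher with shBAP1 #1 and lower with shBAP1 #2, was seen for ATG12, a ubiquitin-like protein of the conjugation machinery (-0.93), and for MITF, another relative of TFEB (-1.18). The calls of MITF against shControl were each lost on leaving out 1 array in 4 of 9 cases (shBAP1 #1: without shBAP1 #1 replicate 1 or 2 or shControl replicate 1 or 2; shBAP1 #2: without shBAP1 #2 replicate 2 or 3 or shControl replicate 1 or 3), and that of STX17 with shBAP1 #1 in 5 (without shBAP1 #1 replicate 2 or 3, or any shControl replicate).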

How the results depend on the processing

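With 1 probe set per gene, 4, 8 and 8 of 10 probe sets were called for shBAP1 #1 over shControl, shBAP1 #2 over shControl and shBAP1 #2 over shBAP1 #1, against 11, 19 and 17 of 27 with all, because fewer were tested. A fold minimum of 1.5 left 6 of the 11 for shBAP1 #1 over shControl, and 11 of 31, 11 of 46 and 25 of 46 calls among the 74 further genes, in the same order of comparisons. Leaving out each array in turn gave 8 to 12, 17 to 19 and 14 to 17 calls among the 27 probe sets. Among the 74 genes it gave 22 to 36, 39 to 46 and 38 to 48. The share of all probe sets called was not computed for any alternative, so nothing is read from these counts about the genes. For the brightest probe set of each of the 10 genes, 472 of 480 alternative values kept their side of the threshold, 4 gained a call and 4 lost one. Of the 472, 466 kept their sign and 6 uncalled values near 0 did not: OPTN and WIPI1 with shBAP1 #1 and TFEB with shBAP1 #2, each on leaving out 1 array. The calls that a fold minimum removed were both of BECN1 (-0.54 and 0.37) and that of NBR1 between the hairpins (0.38). With the replicate block 11, 19 and 17 probe sets and 32, 45 and 46 further genes were called, and of 30 results for the brightest probe sets 1 changed its call, GABARAPL1 with shBAP1 #1 (-0.37). Other calls that the block changed against shControl were OPTN 202073_at and ATG4D (lost) and MAP1LC3C and VAMP8 (gained) with shBAP1 #1, and NRBF2 and ATG9A (lost) and SLC7A11 (gained) with shBAP1 #2. Dim probe sets limit what can be seen in the dimmest sets of SQSTM1, NBR1, CALCOCO2 and BECN1.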
